A study of Mus musculus with 10 samples.

Results

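Well-expressed long noncoding RNAs are described here in CD8+ T cells that had been cultured with 4T1 tumor cells, with or without sodium acetate. A gene was chosen by 2 columns of the deposited table: its biotype had to be lncRNA, and its mean over the 10 samples had to reach 5 FPKM. FPKM counts the fragments of a gene relative to its length and to the depth of the library, so it is a level per length. The rule found 149 members among 57825 listed genes. It left out 1163 other lncRNA genes that were tested at a lower level. The mean over all samples selected the members and the difference between the groups did not, but 25 members had only 1 group mean at 5 FPKM or above, 14 of them CD8+4T1 and 11 of them CD8+4T1+NaAc. Just inside the threshold were Gt(ROSA)26Sor at 5.04 FPKM, 4833407H14Rik at 5.02 FPKM and Slc36a3os at 5.01 FPKM. Just outside it were ENSMUSG00000121265 at 4.99 FPKM, ENSMUSG00000120635 at 4.99 FPKM and Gm17491 at 4.94 FPKM.

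The cells were splenic CD8+ T cells of female Balb/c mice aged 7 to 8 weeks, isolated with a magnetic bead kit. According to the methods of the study they were activated on anti-CD3 with anti-CD28 and IL-2 for 12 h, kept with or without 5 mM sodium acetate (NaAc) for 24 h and then co-cultured for 48 h with 4T1, a mouse mammary carcinoma line. RNA came from purified CD8+ T cells, labelled day 3, and the sources used here do not say how the tumor cells were removed. The groups were CD8+4T1 without acetate (5 samples) and CD8+4T1+NaAc (5 samples), all activated and all exposed to tumor cells. No group without tumor cells was analysed here. The labels do not say whether the replicates came from separate mice or cultures, so the p-values measure the spread between these samples, which may be technical.

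The libraries corresponded to 16306447 to 18853726 fragments each. Members held 0.919% ± 0.0289 (SD, n = 5) of the fragments of the listed genes in CD8+4T1 and 0.868% ± 0.0853 (SD, n = 5) in CD8+4T1+NaAc. Replicate 1 of CD8+4T1+NaAc stood apart, with 20233 genes above 0 against 24681 to 25088 in the others of its group, and replicate 1 of CD8+4T1 had 22291 against 23786 to 24054. T cell genes defined the samples, with a summed level of 1552 to 1772 FPKM over 15 markers in CD8+4T1 and 1266 to 1679 FPKM in CD8+4T1+NaAc. On the deposited scale 7 of the 15 were called lower, Cd3d (-0.54) and Cd3g (-0.53) the most, and 1 higher (Zap70, 0.27). The call of Zap70 was lost when some single samples were left out. Cd8a did not pass the test on that scale (-0.04, limma adjusted p = 0.559). Once the samples were set to one total, 5 were called lower and 4 higher, with Cd8a among the higher. A list of 18 epithelial and 4T1 markers summed to 9.91 to 19.8 FPKM in CD8+4T1 and to 68.0 to 178 FPKM in CD8+4T1+NaAc, with Krt8 at 3.42 ± 1.70 and 34.2 ± 13.1 FPKM (SD, n = 5 each). Of its 9 members that were tested 6 were called higher, while Epcam stood at 0.519 and 0.699 FPKM and Cdh1 at 0.0316 and 0.606 FPKM. The markers of tumor cells moved with the groups, and their part in the results on members was not tested. B cell markers summed to 3.96 to 4.91 and 4.68 to 6.27 FPKM, myeloid markers to 25.7 to 35.5 and 27.8 to 31.7 FPKM, CD4 and NK markers to 13.5 to 15.4 and 11.9 to 18.0 FPKM, and erythroid and stromal markers to 0.872 to 1.70 and 1.94 to 4.51 FPKM. Single markers of these lists were called higher at low levels, namely Cd4 (0.541 to 1.601 FPKM), Mpeg1 (0.905 to 1.83 FPKM), Lyz2 (0.536 to 1.119 FPKM) and Pdgfra (0.149 to 1.16 FPKM), and their part was not tested either. The call of Lyz2 was lost without the filter on low values and without any 1 of 6 samples. In bulk RNA, fewer cells of a type and less RNA per cell cannot be told apart.

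Long noncoding RNAs are transcripts without a long open reading frame. Some act in the nucleus, as Xist does in silencing one X chromosome, as Malat1 does in nuclear speckles where splicing factors gather, and as Neat1 does as the scaffold of paraspeckles. Others are host genes, whose introns or exons hold small nucleolar RNAs (snoRNAs, guides for the modification of ribosomal RNA) or microRNAs. Many snoRNA host genes, such as Gas5 and the Snhg genes, begin with a run of pyrimidines like that of ribosomal protein genes, and their spliced transcripts are degraded by nonsense-mediated decay. In T cells the host transcripts of miR-155 and of the miR-17 to miR-92 cluster are induced on activation.

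The sequences at the starts of 6 snoRNA host genes that were lower with acetate, and of Snhg15 and Snhg5, which did not pass the test, are shown because pyrimidine tracts at the start are a known feature of this class. Each run covers 50 bases before the annotated first base and 30 bases from it on, read 5′ to 3′ on the strand of the gene, from RefSeq on GRCm38.p6. Capitals mark the first tract found, a C followed by at least 4 pyrimidines that begins within 10 bases of the first base.
2410006H16Rik, chr11:62602827-62602906, plus strand: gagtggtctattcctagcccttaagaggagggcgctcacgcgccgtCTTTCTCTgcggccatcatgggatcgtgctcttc
Snhg12, chr4:132308628-132308707, plus strand: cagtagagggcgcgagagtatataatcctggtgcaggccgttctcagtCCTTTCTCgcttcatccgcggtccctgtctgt
Gas5, chr1:161035116-161035195, plus strand: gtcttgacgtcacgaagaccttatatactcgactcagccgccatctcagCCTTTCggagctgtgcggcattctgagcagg
Snhg8, chr3:123508307-123508386, minus strand: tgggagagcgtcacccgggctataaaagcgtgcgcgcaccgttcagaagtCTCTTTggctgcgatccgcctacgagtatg
Snhg1, chr19:8723437-8723516, plus strand: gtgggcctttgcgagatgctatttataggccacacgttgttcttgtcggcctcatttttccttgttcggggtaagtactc
Zfas1, chr2:167062884-167062963, plus strand: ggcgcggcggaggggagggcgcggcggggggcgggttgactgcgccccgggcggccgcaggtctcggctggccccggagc
Snhg15, chr11:6528731-6528810, minus strand: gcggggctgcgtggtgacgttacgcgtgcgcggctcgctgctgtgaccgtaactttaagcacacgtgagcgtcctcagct
Snhg5, chr9:88522868-88522947, minus strand: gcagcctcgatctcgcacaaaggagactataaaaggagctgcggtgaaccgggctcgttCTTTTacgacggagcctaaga

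Of the 149 members, 58 had a promoter entry in the RefSeq table. A tract by this rule was found in 33 of these 58 (56.9%), in 7 of 11 members with a snoRNA inside (63.6%) and in 9297 of 27025 genes with an entry (34.4%). Searched on both strands over 300 bases, GGGCGG was present in 9 of the 11 snoRNA host promoters (81.8%), against 38.2% of all genes and 37.9% of members. TATAAA on the strand of the gene, between 40 and 15 bases before the first base, was present in 3 of the 11 (Snhg8, Snhg5 and 1110038B12Rik, 27.3%) against 2.41% of all genes. The tract stood at the first base or within 4 bases of it in 2410006H16Rik, Snhg12, Gas5 and Snhg8. These matches describe letters in a window, and none of them is a measurement of use.

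Members were compared between the groups with limma on log2(FPKM + 0.1), fitted over the 15710 genes that averaged 0.5 FPKM or more, all 149 members among them. Fold changes are given as log2 of CD8+4T1+NaAc over CD8+4T1 on that scale, with the standard error (SE), and a call means a p below 0.05 after Benjamini-Hochberg adjustment over these genes. Of the 149 members, 71 were called, 17 higher and 54 lower with acetate, that is 47.6%. Among all genes tested 36.5% were called, 17.6% higher and 19% lower. Protein-coding genes that also reached 5 FPKM were called in 46.4% of cases (3275 of 7053, 1153 higher and 2122 lower), so the total share of members called was close to that of protein-coding genes of such a level. Among the 124 members with both group means at 5 FPKM or above, 11 were called higher and 45 lower.

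The median log2 fold change of the 149 members was -0.22, against -0.02 over all genes tested and -0.07 over protein-coding genes of at least 5 FPKM. In all, 99 members had a negative and 50 a positive fold change, from -2.37 to 2.49. The groups did not overlap at all in 45 members, 12 of them higher and 33 lower, whereas 26.4% of all genes tested did not overlap, 13.1% higher and 13.3% lower. Some of the 45 reached the threshold only through the group in which they are high. Among the 124 members with both group means at 5 FPKM or above, 33 did not overlap, 7 higher and 26 lower. Protein-coding genes of at least 5 FPKM did not overlap in 2383 of 7053 cases, 818 higher and 1565 lower. The balance of directions rests on how the samples were scaled. When the samples were set to one common total of FPKM over the listed genes, here called the same-total scale, the median of all genes moved to 0.15 and 65 members were called, 32 higher and 33 lower, beside 4900 higher and 1387 lower among all genes. With the samples scaled to the T cell markers the median of all genes moved to 0.14 and 55 were called, 26 higher and 29 lower, beside 4103 and 1172 among all genes. The listed genes held 95.5% to 97.9% of the fragments in CD8+4T1 and 89.8% to 92.1% in CD8+4T1+NaAc. Under each of these scalings the member median stayed below the median of all genes, at -0.048 and -0.066. Without replicate 1 of either group, 85 members were called, 17 higher and 68 lower, and the share called rose to 44.4% among all genes and to 57.4% among protein-coding genes of 5 FPKM or more, against 57.0% of members.

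**Figure D1:**
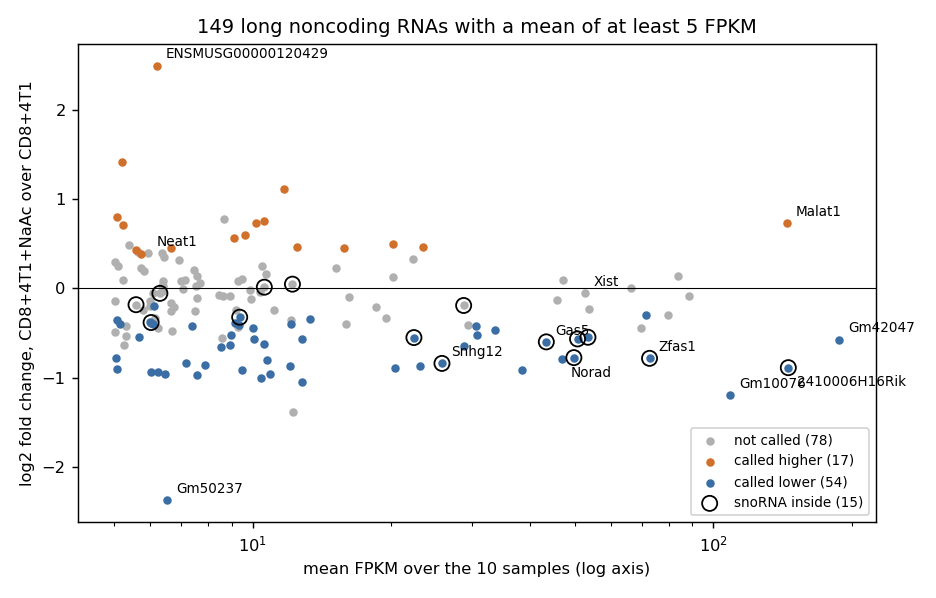
Log2 fold change of CD8+4T1+NaAc over CD8+4T1 (vertical axis) against mean FPKM over the 10 samples (horizontal log axis) for the 149 members. Orange points were called higher (17), blue points lower (54) and grey points not called (78), and the 15 ringed members hold an annotated snoRNA, 10 of them blue and none orange.

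**Figure D2:**
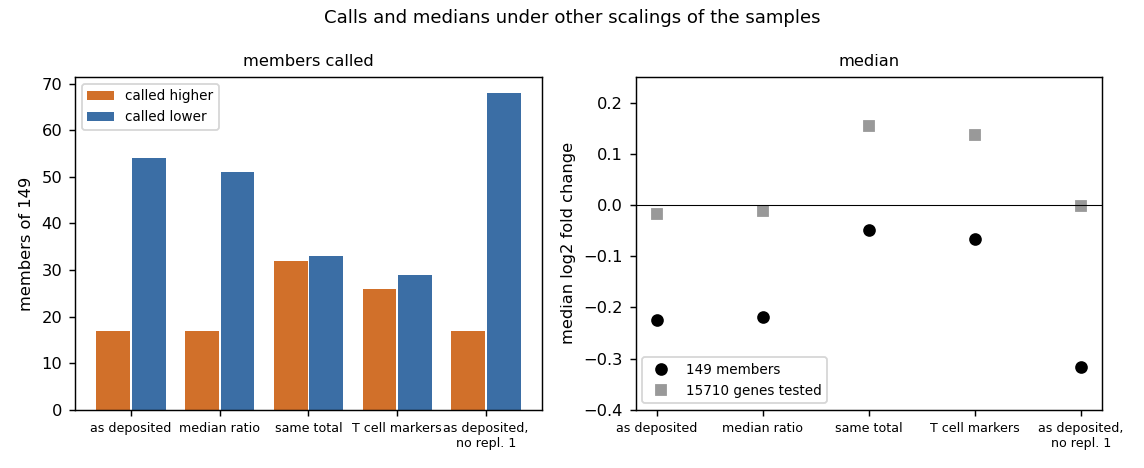
Left, members called higher (orange) and lower (blue) of 149 on the deposited FPKM, after 3 other scalings of the samples, and on the deposited FPKM without replicate 1 of both groups. Right, the median log2 fold change of the 149 members (black) and of the 15710 genes tested (grey), with the members below the genes tested at every setting shown.

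Most members with a snoRNA inside their listed span, on the same strand, were lower with acetate. There were 15 of them, holding 48 annotated snoRNA genes, and 10 were called lower and none higher (median of the 15, -0.55 on the log2 scale), beside 19% called lower among all genes tested and 30.1% among protein-coding genes that reached 5 FPKM. Without them, 17 of the other 134 members were called higher and 44 lower. In 9 of the 15 every CD8+4T1+NaAc sample lay below every CD8+4T1 sample. In this way 13.3% of all genes tested were lower, and 1565 of the 7053 protein-coding genes that reached 5 FPKM. The count held in direction under the other scalings, with 8 lower and 1 higher (Snhg17) on the same-total scale and 8 lower and none higher on the T cell markers. The 12 members on the list of known snoRNA host genes, 8 of them called lower, summed to 405 ± 25.6 FPKM in CD8+4T1 and 277 ± 11.9 FPKM in CD8+4T1+NaAc (SD, n = 5 each). The 48 snoRNA genes themselves were listed at 0 in every sample, so the values are those of the host transcripts only. These numbers count identifiers. Snord80 in Gas5, Snora16a in Snhg12 and Snora43 in ENSMUSG00000120369 are each listed again under another identifier at nearly the same place.

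2410006H16Rik, which holds Snord49a, Snord49b and Snord65 and lies on chromosome 11 from 62493650 to 62495725 (positions as the deposited table lists them), had the second highest level of all members. Its FPKM was 152, 190, 209, 204 and 189 in replicates 1 to 5 of CD8+4T1 and 79.1, 124, 105, 99.5 and 104 in those of CD8+4T1+NaAc. The groups did not overlap, and the log2 fold change was -0.89 (SE 0.120, limma adjusted p = 0.000283). Snhg12, on chromosome 4 from 132035932 to 132038762 with 5 snoRNA genes inside, stood at 33.5, 31.8, 32.1, 37.9 and 30.2 FPKM without and at 18.2, 20.5, 17.9, 17.7 and 17.9 FPKM with acetate. It fell by 0.84 on the log2 scale (SE 0.0669, limma adjusted p = 1.905e-05), with little spread in either group. Zfas1, with 3 snoRNA genes inside, on chromosome 2 from 166904854 to 166907783, stood at 76.1, 98.8, 102, 100 and 83.7 FPKM without and at 53.9, 54.9, 56.6, 44.6 and 56.9 FPKM with acetate. It fell by 0.78 (SE 0.0972, limma adjusted p = 0.000169).

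Gas5, growth arrest-specific 5, whose spliced RNA accumulates when translation or growth stops, holds 10 snoRNA genes, Snord47, Snord78 and Snord80 among them. It lies on chromosome 1 from 160861992 to 160866116 and stood at 50.9, 60.0, 51.6, 51.8 and 47.2 FPKM without and at 35.2, 37.7, 34.7, 34.3 and 30.6 FPKM with acetate. No acetate sample reached the lowest sample without acetate, and the log2 fold change was -0.60 (SE 0.0721, limma adjusted p = 0.000143). Snhg1, with 8 snoRNA genes inside, stood at 60.3, 68.0, 61.4, 58.0 and 55.1 FPKM without and at 39.4, 44.9, 39.4, 36.8 and 44.1 FPKM with acetate, again without overlap. Its log2 fold change was -0.56 (SE 0.0719, limma adjusted p = 0.000188). Of the other hosts, 1110038B12Rik (-0.77), Epb41l4aos (-0.55), Snhg8 (-0.55) and Snhg16 (-0.38) were called lower with no overlap, and Snhg6 (-0.32, limma adjusted p = 0.0285) was called lower with overlap.

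The remaining host genes did not pass the test. Snhg5 stood at 10.5 ± 1.16 FPKM without and at 10.6 ± 1.03 FPKM with acetate, and Snhg17 averaged 12.2 FPKM over all samples (log2 fold change 0.05). Neither was called on the deposited scale (limma adjusted p = 0.918 and 0.652). Snhg15 (-0.19, limma adjusted p = 0.0572), Snhg4 (-0.18, 0.147) and ENSMUSG00000120369 (-0.06, 0.726) did not pass it either. Snhg15 was called lower in 4 of 22 alternatives, the replicate block and the filter at 5 FPKM among them. Snhg6 and Snhg16 lost their calls on the same-total scale (limma adjusted p = 0.295 and 0.0570) and on the T cell markers (0.402 and 0.165). Snhg6 also lost its call with the replicate block, without a filter on low values and without any 1 of 7 samples, whereas 2410006H16Rik, Zfas1, Snhg12, Gas5, Snhg1, Snhg8 and Epb41l4aos kept theirs in all 22 alternatives run for each.

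**Figure D3:**
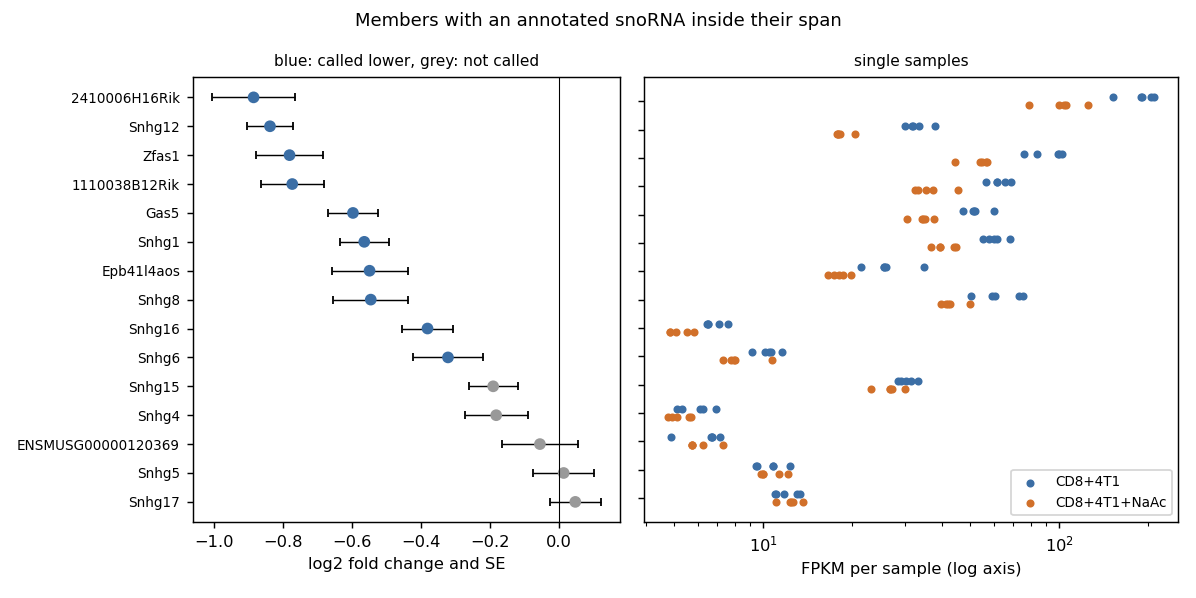
Left, log2 fold change and SE of the 15 members with an annotated snoRNA inside, blue where called lower and grey where not called. Right, FPKM of every sample on a log axis, CD8+4T1 in blue and CD8+4T1+NaAc in orange, with no overlap between the groups in 9 of the 15.

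Proteins of the snoRNA particles and of nonsense-mediated decay were compared beside the hosts, from lists of known genes. Of protein-coding genes that reached 5 FPKM, 16.3% were called higher and 30.1% lower, and these lists have to be read against those shares. Of 8 core proteins 4 were called lower and none higher, namely Fbl, the methyltransferase fibrillarin (-1.14, limma adjusted p = 0.000166), Gar1 (-0.95, 0.00301), Nhp2 (-0.70, 0.000164) and Dkc1, the pseudouridine synthase dyskerin (-0.19, 0.0141). Dkc1 lost its call on the same-total scale and on the T cell markers, where 3 of the 8 remained called. Nop56, Nop58, Snu13 and Nop10 did not pass the test. Of 15 decay factors 8 were called lower, Rbm8a (-0.93) and Magoh (-0.53) of the exon junction complex among them, and 1 higher, the kinase Smg1 (0.20, limma adjusted p = 0.0456), which lost its call with the replicate block, without the filter on low values and without any 1 of 9 samples. On the same-total scale and on the T cell markers, 4 decay factors were called in each direction, beside 2481 higher and 917 lower among the 7053 protein-coding genes on the former scale and 2021 and 749 on the latter. Upf1, the central helicase of the pathway, stood at 33.3 ± 3.25 and 32.3 ± 7.12 FPKM (SD, n = 5 each, limma adjusted p = 0.732). Its log2 fold change ran from -0.19 to 0.12 over the alternatives, and it was called without replicate 1 of CD8+4T1+NaAc.

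Of the 22 members that start within 1 kb of a protein-coding gene on the other strand, 9 were called lower and 1 higher (45.5%, close to the 47.6% of all members). Gt(ROSA)26Sor, named only for its place at the threshold, was not compared with its partner Setd5. The 6 that were compared with their partner belong to the 50 named members recomputed under the alternatives. Several host genes among them share a start region with a protein-coding gene on the other strand, which allows the noncoding and the coding RNA of 1 region to be compared. Znfx1, an antiviral helicase gene that starts 81 bases from Zfas1, stood at 6.89 FPKM without and at 6.92 FPKM with acetate (log2 fold change 0.01, SE 0.0546, limma adjusted p = 0.939). Slc3a2, the heavy chain of amino acid transporters, starts 68 bases from Snhg1 and stood at 67.3 and 61.4 FPKM (-0.14, SE 0.0645, 0.121). Zbtb37, which starts 427 bases from Gas5, stood at 1.46 and 1.28 FPKM (-0.18, SE 0.102, 0.195), and Brip1, a DNA repair helicase that starts 118 bases from Brip1os, at 4.17 and 3.98 FPKM (-0.07, SE 0.0926, 0.583). On the deposited scale none of these 4 coding partners was called, whereas the noncoding neighbours were. Brip1os lost its call on the T cell markers (limma adjusted p = 0.145). Calls of the partners under the other scalings are not given here. Among the 16 pairs not compared here the partner was called higher in 3 and lower in 3, for example Ccr7 (0.32) and Map3k8 (-0.24).

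The log2 ratio of member to partner tests that contrast itself. It differed between the groups by -0.79 for Zfas1 and Znfx1, by -0.43 for Snhg1 and Slc3a2, by -0.42 for Gas5 and Zbtb37 and by -0.33 for Brip1os and Brip1, with no overlap of the groups in any of them. Each had p = 0.00794 in a two-sided exact permutation test over 252 splits, the smallest p that these splits allow, and 0.00952 after adjustment over the 6 pairs compared. Gm16094 and Sp110, an interferon-induced nuclear body gene 469 bases away, gave -0.83 with the same p, but Gm16094 had also been named for its large fall. ENSMUSG00000120992 and the valyl-tRNA synthetase gene Vars gave -0.19 with overlapping groups (exact permutation p = 0.0238, adjusted 0.0238), since Vars rose (0.33) and its partner did not pass the test. A ratio within a sample does not change with the scaling of the sample. Whether the counting used the strand is not given in the sources used here, so reads of overlapping genes could not be assigned with certainty. Brip1os overlaps Med13 by 37411 bases and Ints2 by 46895 bases on the other strand, so its ratio is exposed to this beyond the ends.

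**Figure D4:**
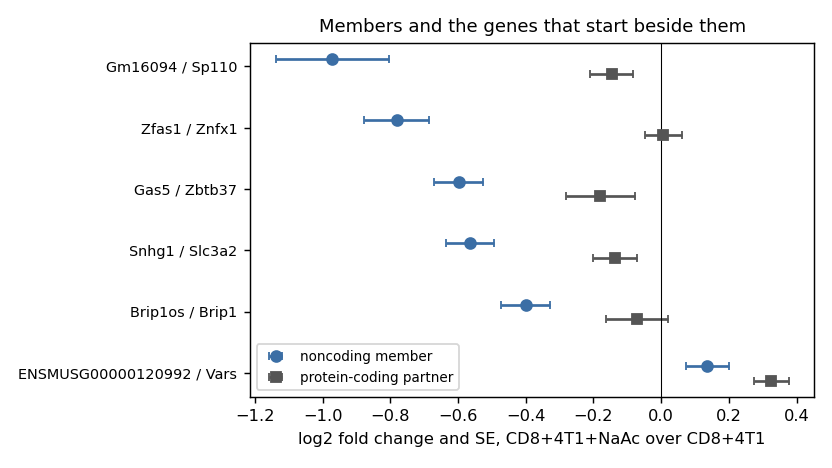
Log2 fold change with SE of 6 noncoding members (blue circles) and of the protein-coding genes that start within 1 kb on the other strand (grey squares). In 5 pairs the member lies at -0.40 or below while its partner lies between -0.18 and 0.01, and ENSMUSG00000120992 and Vars are both above 0.

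Members on the list of nuclear and chromatin lncRNAs went in different directions. Malat1, on chromosome 19 from 5845717 to 5852704, was the third most abundant member and the only one of the 15 members over 50 FPKM to be called higher. Its FPKM was 104, 104, 102, 104 and 114 in CD8+4T1 and 227, 132, 267, 156 and 133 in CD8+4T1+NaAc. All acetate samples lay above all others, replicates 1 and 3 by the most, and the log2 fold change was 0.73 (SE 0.186, limma adjusted p = 0.0104). Malat1 took 8.28% ± 0.585 of the fragments of members without and 15.9% ± 4.14 with acetate (SD, n = 5 each). Without replicate 3 of CD8+4T1+NaAc the log2 fold change was 0.58, and without replicate 1 of both groups it was 0.64 (limma adjusted p = 0.0132 and 0.0397). Of the 6 members on this list, Malat1 and Firre were called higher, beside 17.6% higher and 19% lower among all genes. The 2 called lower were Oip5os1 and Norad, and Norad is a cytoplasmic RNA. On the same-total scale 3 of the 6 were higher (Malat1, Firre and Neat1) and 1 lower (Norad), beside 4900 higher and 1387 lower of 15710 genes. Neat1 reached the threshold only through CD8+4T1+NaAc, so its call there was favoured by the choice of members.

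Neat1, the neighbour of Malat1 on chromosome 19 from 5874736 to 5895898 and the longest member at 21163 bases, was not called on the deposited scale. It stood at 4.73, 5.09, 5.15, 5.39 and 4.41 FPKM without and at 11.5, 5.50, 6.05, 6.69 and 4.66 FPKM with acetate. Replicate 1 of CD8+4T1+NaAc was far above the rest, and the groups overlapped (log2 fold change 0.40, SE 0.200). Neat1 reached the threshold only through CD8+4T1+NaAc, so its difference is a description. The log2 fold change was 0.20 without that sample and 0.57 on the same-total scale, the only alternative in which Neat1 was called. Frmd8, the coding gene next to Neat1, did not pass the test (0.05, limma adjusted p = 0.543).

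The proteins that assemble with these RNAs were compared as lists. Protein-coding genes that reached 5 FPKM gave 1153 higher and 2122 lower calls of 7053 on the deposited scale and 2481 higher and 917 lower on the same-total scale, so the scaling turned the balance of these genes in general. Of 13 paraspeckle proteins 6 (46.1%, close to the 46.4% of protein-coding genes of such a level) were called lower and none higher on the deposited scale, Pspc1 among them (-0.38, limma adjusted p = 0.00292), while Nono and Sfpq, which bind Neat1, did not pass the test (0.01 and -0.15). On the same-total scale these 13 gave 3 higher and 2 lower calls, Nono among the higher. Pspc1 lost its call there and on the T cell markers. Of 11 nuclear speckle proteins Srrm2, a core component of speckles, was called higher (0.48, limma adjusted p = 0.000187) and 5 were called lower, Srsf3 the most (-0.56, 3.7e-05), while the same-total scale gave 5 higher and 1 lower.

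Xist, expressed from the inactive X chromosome of these female cells, stood at 53.7 ± 4.33 FPKM without and 51.7 ± 3.54 FPKM with acetate (SD, n = 5 each). It did not pass the test (-0.05, SE 0.0678, limma adjusted p = 0.565) here or in any of the 22 alternatives. Its antisense gene Tsix stood under 0.05 FPKM in the mean of either group. Firre, a nuclear RNA that also comes from the X chromosome (49644621 to 49724198), rose from 4.95, 6.43, 5.62, 6.27 and 4.86 FPKM to 7.44, 7.71, 7.41, 8.56 and 7.36 FPKM. The groups did not overlap (0.45, SE 0.0894, limma adjusted p = 0.00261), and Firre was called in all 22 alternatives. Oip5os1, known as Cyrano, was called lower (10.3 ± 0.416 to 7.98 ± 1.27 FPKM, -0.38, limma adjusted p = 0.00753), with replicate 1 of CD8+4T1+NaAc at 10.2 FPKM inside the range of CD8+4T1. Its call was lost on the same-total scale and on the T cell markers.

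Norad, a cytoplasmic RNA that binds Pumilio proteins and guards the stability of chromosomes, fell. It lies on chromosome 2 from 156229980 to 156234921 and stood at 57.0, 55.8, 61.4, 58.7 and 62.0 FPKM without and at 50.4, 28.9, 32.1, 31.5 and 30.9 FPKM with acetate. Replicate 1 of CD8+4T1+NaAc was again apart, yet below every sample without acetate (log2 fold change -0.79, SE 0.131, limma adjusted p = 0.000906). Without that sample the fall was 0.93 (2.808e-06). A few of its Pumilio elements are shown, as the feature for which this RNA is known, read 5′ to 3′ on the transcript of 4915 bases that GENCODE vM21 gives for GRCm38 and numbered from its first base. Capitals mark the element TGTANATA, searched on the transcript strand only.
Norad, element at base 651: tagaagtcctgTGTATATAatatgaaaaag
Norad, element at base 1147: agtaaacatgcTGTAAATAcctttttgtta
Norad, element at base 1829: tgtgtgtatacTGTATATAatggacaaata
Norad, element at base 3526: cagtgagaaagTGTACATAacggattggta

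That transcript held 11 such elements, 2.24 per 1000 bases, against 0.103 per 1000 bases over all transcripts of the annotation. Among 13097 transcripts of at least 4000 bases the median was 0, and 8 of them, Norad included, held as many or more.

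The members that hold microRNAs are host transcripts whose spliced level need not follow that of the mature microRNA, which these libraries do not measure. There were 6 of them, with 12 annotated microRNA genes that were listed at 0 in every sample. Mir17hg was called lower and the other 5 were not called, beside 47.6% called among all members and 36.5% among all genes. The mature sequences that RefSeq gives for GRCm38.p6 are shown for the hosts known in lymphocytes, with the seed, bases 2 to 8, in capitals. The first 6 come from Mir17hg, where miR-17-5p and miR-20a-5p share one seed and miR-19a-3p and miR-19b-3p share another.
mmu-miR-17-5p: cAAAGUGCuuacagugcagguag
mmu-miR-20a-5p: uAAAGUGCuuauagugcagguag
mmu-miR-18a-5p: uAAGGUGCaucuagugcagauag
mmu-miR-19a-3p: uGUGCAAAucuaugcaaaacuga
mmu-miR-19b-3p: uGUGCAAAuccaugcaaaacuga
mmu-miR-92a-3p: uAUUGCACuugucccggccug
mmu-miR-155-5p: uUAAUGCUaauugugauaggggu
mmu-miR-142a-5p: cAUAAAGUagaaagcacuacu
mmu-miR-142a-3p: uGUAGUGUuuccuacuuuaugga
mmu-miR-22-3p: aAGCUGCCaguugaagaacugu

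Mir17hg, the primary transcript of the miR-17 to miR-92 cluster that drives lymphocyte growth, stood at 9.48, 11.6, 11.4, 11.1 and 9.75 FPKM without and at 8.55, 7.11, 7.52, 8.96 and 7.87 FPKM with acetate. The groups did not overlap (log2 fold change -0.41, SE 0.0822, limma adjusted p = 0.00286), and the call was lost on the T cell markers (-0.25, 0.0704). Mir155hg, induced on T cell activation, stood at 56.2, 60.5, 60.2, 58.8 and 52.4 FPKM without and at 63.9, 40.1, 50.4, 51.4 and 43.5 FPKM with acetate. Replicate 1 was the highest sample of all and the other 4 acetate samples lay below every CD8+4T1 sample, so that Mir155hg was not called with all samples (-0.23, limma adjusted p = 0.135) and was called lower without that sample (-0.32, 0.00815). Mir142hg, specific to blood cells, showed the same, with 47.5 FPKM in that sample against 19.1 to 24.04 in the others of its group and 27.5 to 35.6 in CD8+4T1. Its log2 fold change was -0.41 (SE 0.227, limma adjusted p = 0.185) with all samples and -0.65 (0.000314) without replicate 1 of CD8+4T1+NaAc. Mir22hg stood at 19.2 ± 1.09 and 21.2 ± 4.10 FPKM (SD, n = 5 each) and was not called.

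**Figure D5:**
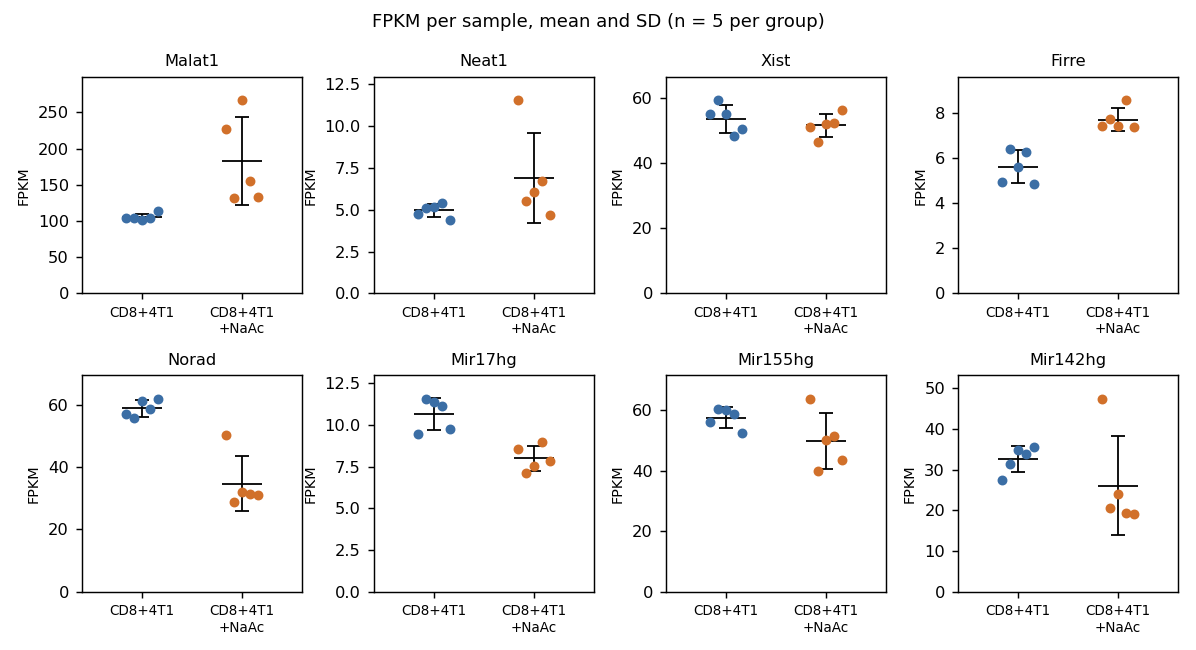
FPKM of every sample for 8 members, CD8+4T1 in blue and CD8+4T1+NaAc in orange, with replicates 1 to 5 from left to right and the mean and SD of 5 samples in black. Replicate 1 of CD8+4T1+NaAc is the highest orange point for Neat1, Norad, Mir155hg and Mir142hg, and the groups do not overlap for Malat1, Firre, Norad and Mir17hg.

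Of 8 proteins of microRNA processing only Dgcr8, the partner of the nuclease Drosha, was called on the deposited scale (-0.46, limma adjusted p = 0.00198), beside 46.4% of protein-coding genes that reached 5 FPKM. Drosha (0.14, 0.0829) and Dicer1 (-0.04, 0.584) did not pass the test, and the same-total scale gave 3 higher and 1 lower, where 2481 of those 7053 protein-coding genes were higher and 917 lower. Mirt1, a member on chromosome 19 from 53431661 to 53453227 that carries no annotated microRNA, rose from 6.66, 8.55, 7.29, 7.05 and 7.09 FPKM to 11.2, 11.4, 10.6, 10.1 and 11.2 FPKM. It was called in all 22 alternatives (0.57, SE 0.0703, limma adjusted p = 0.000165). Mirt1 overlaps 4833407H14Rik by 2206 bases on the other strand. That gene did not pass the test (0.30, limma adjusted p = 0.2875), and reads of the overlap cannot be assigned with certainty.

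The first and the third largest called rises lay close to each other in the genome. ENSMUSG00000120429, Gm28942, Gm8066 and Gm20405 among the rises and Gm50237, ENSMUSG00000120697 and Gm49180 among the falls reached the threshold only through the group in which they are high, so that their differences were favoured by the choice of members and are given as descriptions. ENSMUSG00000120429, on chromosome 8 from 84930373 to 84930713, rose the most of all members, from 1.23, 0.841, 1.44, 2.14 and 3.38 FPKM to 8.23, 12.9, 16.7, 10.9 and 4.06 FPKM. Its groups did not overlap (log2 fold change 2.49, SE 0.421), and the value rests on 5 to 94 fragments per sample. Gm26532, the third in order of rise, lies further on (84935549 to 84936238) and rose from 7.43 ± 2.61 to 15.9 ± 4.13 FPKM (SD, n = 5 each, 1.11, SE 0.250, limma adjusted p = 0.00574), with overlap between the groups. The microRNA genes Mir23a, Mir27a and Mir24-2, whose products act in many cell types, lie between both members, just before Gm26532 and on its strand.

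All the other rows of the table between 84927498 and 84936238 were read for this region after the values of both members had been seen. Gm37352 (1.197 ± 0.345 to 7.28 ± 2.58 FPKM), ENSMUSG00000120746 (1.13 ± 0.762 to 8.61 ± 2.51 FPKM) and an unnamed row from 84930714 to 84933118 (0.880 ± 0.348 to 4.90 ± 1.53 FPKM) were each called higher, with log2 fold changes of 2.44, 2.92 and 2.36. The rows of Mir23a (3.64, limma adjusted p = 0.0319) and Mir27a (3.52, 0.0111) were called higher on at most 29 and 26 fragments, Mir23a losing its call in 8 alternatives with log2 fold changes from 2.22 to 4.98, and Mir24-2 (at most 4 fragments) was not, nor was Mir3074-2, listed at 0. Zswim4, the coding gene on the other side of Gm26532, stood at 35.8 ± 2.08 and 34.9 ± 2.52 FPKM and did not pass the test (-0.04, limma adjusted p = 0.668). Replicate 5 of CD8+4T1+NaAc was the lowest of its group for both members and for Gm37352, ENSMUSG00000120746 and the unnamed row, and it also had the lowest sum of epithelial and 4T1 markers of its group (68.0 FPKM). Replicate 1 had the next lowest sum (77.3 FPKM) and the highest values of the group for ENSMUSG00000120746, Mir23a and Mir27a. Replicate 2 had the highest sum (178 FPKM) and the highest values for Gm26532, Gm37352 and the unnamed row, and replicate 3 the highest for ENSMUSG00000120429. The part of tumor RNA in this rise was not tested. The mature sequences of the 3 microRNAs follow for identification, from RefSeq on GRCm38.p6 with the seed in capitals.
mmu-miR-23a-3p: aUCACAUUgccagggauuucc
mmu-miR-27a-3p: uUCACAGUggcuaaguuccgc
mmu-miR-24-3p: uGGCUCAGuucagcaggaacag

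The 8 largest called rises also include Malat1, described above. Gm28942 rose from 2.79, 2.51, 3.02, 2.49 and 2.82 FPKM to 11.4, 6.10, 6.14, 5.67 and 9.24 FPKM, with no overlap (log2 fold change 1.41, SE 0.181). Gm50260 (0.75), Gm33104 (0.73) and Gm20405 (0.71) rose without overlap, and Gm8066 rose with overlap (0.80) and lost its call in 10 of 22 alternatives. Gm20405 is 229 bases long, lies inside Efr3a on the same strand and was read on 12 to 29 fragments, and Efr3a itself rose (0.48, limma adjusted p = 0.000197), so their reads cannot be kept apart with certainty.

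Among the falls, Gm50237 fell the most, from 10.3, 11.4, 10.8, 10.8 and 11.3 FPKM to 3.01, 2.39, 1.69, 1.14 and 2.46 FPKM. That is -2.37 on the log2 scale (SE 0.209), on 9 to 93 fragments of a transcript of 466 bases. Gm42047, the most abundant member with 13548 to 23307 fragments, stood at 235, 237, 229, 228 and 194 FPKM without and at 162, 145, 145, 144 and 158 FPKM with acetate (-0.57, SE 0.0656, limma adjusted p = 0.000106). Its nearest coding gene, Klhdc4, fell by 0.25 (0.0221). Gm10076 had the second largest called fall (-1.20, limma adjusted p = 0.0395), but 1 sample decided its size, replicate 4 of CD8+4T1 at 387 FPKM against 82.9 to 114 in the others of its group. Without that sample the log2 fold change was -0.80 (0.0231), and the call was lost in 14 of 22 alternatives.

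AI504432 (-1.05), C130083M11Rik (-0.96) and I730030J21Rik (-0.87) fell without overlap, and in each of them replicate 1 of CD8+4T1+NaAc was the highest of its group. C130083M11Rik overlaps 9230114K14Rik by 16451 bases on the other strand. That gene was also called lower (-0.52, limma adjusted p = 0.00283), so reads of the overlap cannot be assigned with certainty. AI504432 begins 1434 bases behind Kcna3, the voltage-gated potassium channel of T cells, on the same strand. It fell from 17.2 ± 1.65 to 8.45 ± 2.39 FPKM, whereas Kcna3 stood at 14.2 ± 1.39 and 12.8 ± 1.97 FPKM (SD, n = 5 each) and did not pass the test (-0.16, limma adjusted p = 0.269). I730030J21Rik lies 1092 bases before Galnt6, a glycosyltransferase gene, which fell less (-0.32, limma adjusted p = 0.000392). Gm46597 (-0.999), Gm16094 (-0.97), ENSMUSG00000120697 (-0.96) and Gm49180 (-0.93) were the other members of the 8 largest called falls, and Gm49180 lost its call in 2 of 22 alternatives.

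Of the 7 members on the list of immune lncRNAs, 3 were called lower and 1, Malat1, higher, beside 47.6% called among all members and 36.5% among all genes. AW112010, an inflammation-induced transcript that also encodes a small protein, was the fifth most abundant member, at 91.1 ± 13.5 FPKM without and 86.1 ± 11.8 FPKM with acetate (SD, n = 5 each, -0.08, limma adjusted p = 0.645). A430093F15Rik, which lies between the T cell surface receptor genes Cd5 and Cd6 on chromosome 19, fell from 38.5, 40.9, 39.5, 38.5 and 36.4 FPKM to 33.5, 25.5, 26.4, 26.1 and 29.9 FPKM (-0.46, SE 0.0759, limma adjusted p = 0.000862), and lost its call on the T cell markers (0.0606). Cd5 also fell on the deposited scale (-0.27, limma adjusted p = 0.00780), a call lost on the same-total scale and on the T cell markers, and Cd6 did not pass the test (-0.03, 0.712). Gm19585 was called lower (-0.29, limma adjusted p = 0.0327) with overlapping groups and lost its call in 12 of 22 alternatives. On the same-total scale 2 members of this list were lower and 1 higher, beside 4900 higher and 1387 lower of 15710 genes.

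Abundance was concentrated in few members. The 10 most abundant held 36.2% of the summed member FPKM, 15 members were over 50 FPKM, 49 between 10 and 50 FPKM and 85 under 10 FPKM. The sum over all members was 3193 ± 193 FPKM in CD8+4T1 and 2618 ± 238 FPKM in CD8+4T1+NaAc (SD, n = 5 each). The sum in replicate 1 of CD8+4T1+NaAc, 3012 FPKM, lay inside the range of CD8+4T1, and the other 4 acetate samples lay below it. The median coefficient of variation of the members was 11.9% in CD8+4T1 and 18.4% in CD8+4T1+NaAc. In 40 members some sample had fewer than 50 fragments, and these values carry more counting error.

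Most members have no name beyond a number. The counts that follow stand beside 47.6% called among all members and 36.5% among all genes tested. The 27 members with a given name were called in 15 cases (3 higher, 12 lower), the 72 with Gm numbers in 31 (10 higher, 21 lower), the 19 RIKEN clones in 12 (2 higher, 10 lower) and the 26 known by identifier only in 11 (2 higher, 9 lower). By position, 89 members overlap another listed gene, 68 of them a gene on the other strand, and 42 of the 89 were called, against 29 of the 60 that overlap no other gene. ENSMUSG00000120992 and ENSMUSG00000121093, at ranks 6 and 19, carry retroviral protein text in the annotation, may share reads with repeated copies and were not called.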

How the data were processed

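The authors deposited FPKM per gene and sample, with gene length as an other, unnormalized column. Per the submitters' processing notes reads went through fastp, HISAT2 2.0.5, StringTie 1.3.3b and featureCounts 1.5.0-p3. The genome build and strand setting are not given in the sources used here. FPKM times length gave whole fragments for 100% of values (within 0.1), which gives the depth, and no replicate pair agreed within sampling noise. Since the deposited unit is FPKM and not counts, limma 3.58.1 in R 4.3.3 was used on log2(FPKM + 0.1), with trend and robust moderation, for genes of at least 0.5 FPKM on average, and was tested on simulated data. The recovered fragments served for an alternative with limma voom. No per-sample column was left unused. The members and lists were chosen with earlier results of these data known. Named are members of the lists of snoRNA host, nuclear, microRNA host and immune lncRNAs, further Snhg, Mir host and antisense symbols, the 10 most abundant, the 8 largest called rises and falls, those nearest the threshold, and partner genes. Of those nearest the threshold, only Slc36a3os counts among the 50 named members recomputed under the alternatives. Nearby genes beyond 1 kb, the rows around Mir23a and further members were added after their values were seen. Figures were drawn with matplotlib 3.10.9. Sequences came from RefSeq (GRCm38.p6) and GENCODE vM21.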

Additional observations from a re-analysis of the deposited data

Results flagged for a closer look

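A sample was marked where it lay further from its group of 5 than Dixon's 95% limit allows, which chance does in about 1 of 20 groups, and 15 of 118 groups of values were marked. Replicate 1 of CD8+4T1+NaAc was the marked sample in 10 of them. It was the highest of its group for Gm55594 (121 FPKM against 54.0 to 70.8 in the others), ENSMUSG00000121141 (111 against 42.4 to 55.7), Norad (50.4 against 28.9 to 32.1), Mir142hg (47.5 against 19.1 to 24.04), AI504432 (12.6 against 6.84 to 8.02), I730030J21Rik (12.8 against 7.26 to 7.79), C130083M11Rik (12.7 against 6.10 to 6.66), Snhg6 (10.7 against 7.31 to 8.02) and Oip5os1 (10.2 against 7.26 to 7.58). It was the lowest for the summed B cell markers (4.68 FPKM against 6.03 to 6.27). All 9 of these members were lower with acetate in the mean, and the same sample had the fewest genes above 0. The cause was not tested.

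The other marked samples were single. Replicate 4 of CD8+4T1 was high for Gm10076 (387 FPKM against 82.9 to 114), replicate 5 of CD8+4T1 was low for Gm42047 (194.5 FPKM against 228 to 237) and high for Malat1 (113.5 FPKM against 102 to 104), replicate 4 of CD8+4T1+NaAc was low for Zfas1 (44.6 FPKM against 53.9 to 56.9) and replicate 2 of CD8+4T1+NaAc was high for Snhg12 (20.5 FPKM against 17.7 to 18.2).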

How the results depend on the processing

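The counts of members called (71, 17 higher and 54 lower) and the median of -0.22 kept their direction under the pseudocounts 1 and 0.01, both other filters, median-ratio scaling, plain limma, voom on recovered fragments (5976 genes called, against 5742) and the replicate block (67 called, 17 higher and 50 lower, median -0.22). The replicate numbers did not pair the samples, with correlations of same-numbered deviations between -0.03 and 0.07, and 2 of 5 correlated best with their own number. With one common total of FPKM there were 32 higher and 33 lower calls (median -0.048), and on the T cell markers 26 and 29 (median -0.066), and both scalings move the median of all genes. At adjusted p under 0.01 there were 45 calls, 11 higher and 34 lower. Of members averaging 10 FPKM or more, 38 of 64 were called (59.4%), and of those with 5 FPKM in every sample 47 of 88 (53.4%). Fewer members were counted under these rules of level, and each share lay above that of all members. The matching shares of other genes, at that adjusted p or at those levels, are not given here. Whether members differed from other genes under these rules was not tested. Leaving out 1 sample gave 56 to 86 calls, 13 to 17 higher and 40 to 69 lower, with medians from -0.27 to -0.19. The share called ran from 37.6% to 57.7% of members and from 31.5% to 44.3% of all genes tested. With the replicate block it was 45.0% of members and 34.4% of all genes tested. Without replicate 1 of both groups, chosen after seeing the data, the median was -0.32 and 85 were called. The 50 named members gave 1100 alternative values, of which 1014 kept direction and call, 58 lost and 17 gained a call, and 11 changed sign, all of members never called: AW112010 (0.10 on the common total, 0.079 on the T cell markers, -0.16 to 0.0085 with 1 sample left out), Xist (0.12 and 0.10), Gm28875 (0.14 and 0.12) and Snhg5 (-0.035 to 0.069 with 1 sample left out). The fragments behind short members, 2 at the fewest, limit their precision.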

Other observations

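All genes tested, of every level, were called in 36.5% of cases, and the share among other genes below 5 FPKM is not given here. Of the 1163 lncRNA genes tested at a mean below 5 FPKM, 181 were called (97 higher and 84 lower), that is 15.6%. Among them were Ptgs2os2, an antisense neighbour of the prostaglandin synthase gene Ptgs2, at 0.243 ± 0.0843 FPKM without and 1.80 ± 0.555 FPKM with acetate (SD, n = 5 each, log2 fold change 2.46, limma adjusted p = 0.000102), and Lockd, which lies beside the cyclin-dependent kinase inhibitor gene Cdkn1b, at 3.54 ± 0.526 and 1.68 ± 0.168 FPKM (-1.03, 0.000108). Snhg20, a snoRNA host gene just under the threshold, fell from 5.59 ± 0.985 to 3.87 ± 0.732 FPKM (-0.52, 0.0154) and lost its call on the common total and on the T cell markers. Tug1 (-0.10), which the table lists as protein coding, and Pvt1 (0.10) did not pass the test on the deposited scale.

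Some neighbours of members were read after their values had been seen. Prss12, a serine protease gene 948 bases from the end of Snhg8 on the other strand, rose from 0.464 ± 0.318 to 4.00 ± 1.53 FPKM (SD, n = 5 each, 2.97, limma adjusted p = 0.000183) while Snhg8 fell. Trnau1ap, 312 bases from the end of Snhg12 on the other strand, fell with it (-0.40, 0.00279).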
